A study of Mus musculus with 15 samples.

Results

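F-box proteins are the substrate receptors of SCF ubiquitin ligases. In these complexes the cullin Cul1 is the scaffold, the RING protein Rbx1 brings the ubiquitin-loaded enzyme, and the adaptor Skp1 docks whichever F-box protein chooses the substrate. The receptors are named by the domain that reads the substrate: Fbxw proteins carry WD40 repeats, Fbxl proteins leucine-rich repeats, and Fbxo proteins other domains. Several of them act on cell cycle regulators, and some are known from muscle, where they take part in the loss of muscle protein during atrophy.

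The genes described here were those whose platform symbol began with Fbxo, Fbxl or Fbxw and a number, together with Skp2, Btrc and Cul1. Fbxo5 was left out by the same rule, and where a gene had several probe sets, the one that averaged highest at 0 min stood for it. This gave 73 genes on 75 probe sets, of 19452 genes with a single symbol. All 73 matched the RefSeq gene table under the same symbol. The rule also asked for Skp1a, which the platform lists as Skp1, so this adaptor was not picked and is given below only as a partner. One name the rule did pick, Fbxl12os, is a transcribed pseudogene in RefSeq and not an F-box protein. A further 2 probe sets that list F-box symbols among several genes were not used.

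The cells were proliferating C2C12 (LKO1) mouse myoblasts, a line carrying the empty LKO1 lentiviral vector, grown in puromycin and kept below confluency so that they did not differentiate. All 15 samples had been treated with 8 µg/mL actinomycin D, which blocks transcription, for 30 min before the first collection, so no untreated sample serves as a control. For each of 3 time courses, run as replicates, total RNA was taken at 0 min and again after 10, 50, 110 and 230 min, and it was hybridised to 1 Affymetrix Mouse Gene 1.0 ST array per sample. The study ran the experiment in triplicate, but neither its text nor the labels say whether the cultures were separate, so the spread behind each p-value is that between arrays and may be technical.

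Each array had been scaled by its own 5th percentile, and a ratio of 1.00 is therefore close to its background. The ratios of different probe sets depend on their probes, so sums, ranks and bins of ratios below do not measure amounts of RNA between genes. A probe set was called expressed when 2 or more of its 3 values at 0 min exceeded the array median, as 12544 of 25175 did. All 8 myoblast markers passed this filter, with a summed ratio of 130 to 169 on the 0 min arrays. The 12 myotube markers found summed to 29.5 to 50.2. Of these, 5 passed (Myog, Ckm, Acta1, Tnnt3 and Tmem8c), while Myh1, Myh2, Myh3, Myh4, Myh8, Myl1 and Ttn did not. Pdgfra and Cd34 passed among 9 fibroblast and adipocyte markers, and Cd68 among 6 blood and endothelial markers. The 75th percentile of an array was 7.10 to 9.81 up to 50 min and 2.89 to 5.46 from 110 min on, and 2 arrays stood apart. In time course 1 the 75th percentile was lower at 110 min (3.90) than at 230 min (4.62), and in time course 2 it reached 2.89 at 230 min, the lowest of the 15.

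Most F-box genes were expressed in the myoblasts. Of the 73 genes, 48 (65.8%) passed the filter, against 9879 of 19452 genes (50.8%) on the whole array. The filter read the 0 min arrays, which also enter the slopes, for these and for all other genes alike. They comprised 23 of 35 Fbxo genes, 14 of 18 Fbxl genes, 8 of 17 Fbxw genes and all of Skp2, Btrc and Cul1. The 0 min means of the expressed genes ran from 2.68 for Fbxl4 to 24.5 for Cul1, with a median of 7.58. Fbxl4, a mitochondrial F-box protein, only just passed, with 2.72, 2.97 and 2.36 on its 0 min arrays.

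The other 25 genes lay near background, with 0 min means of 0.89 to 2.18 and no value above 2.43 on any array. Among them were 8 Fbxw genes of a closely related mouse cluster (Fbxw13, Fbxw15, Fbxw18, Fbxw20, Fbxw21, Fbxw22, Fbxw24 and Fbxw26), whose probe sets may share signal. The striated muscle genes Fbxo40 and Fbxl22 were also below the filter. Fbxo40, a receptor of the insulin receptor substrate Irs1 in muscle, gave 2.19, 2.35 and 1.98 at 0 min and 1.49, 1.44 and 1.51 at 230 min. Of the 5 receptors that bind glycoproteins, Fbxo6 and Fbxo17 were expressed, and Fbxo2, Fbxo27 and Fbxo44 were not. With no filter on level, 12 of the 25 genes fell in limma at an adjusted p of 0.05, beside 75.8% of all probe sets. A gene below the filter is therefore not shown to be absent.

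**Figure D1:**
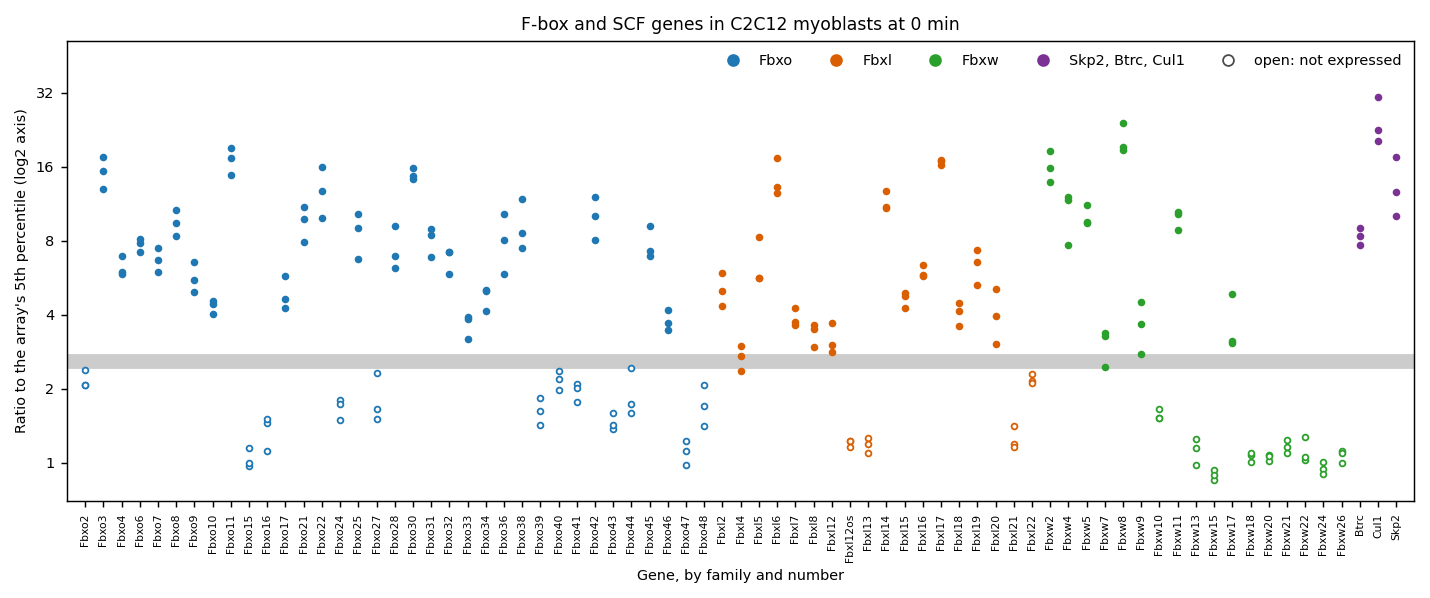
Each point is the ratio of 1 gene on 1 of the 3 arrays at 0 min (log2 axis), for the 73 genes by family; open points are genes that did not pass the filter and the grey band spans the array medians, 2.42 to 2.74. The 48 expressed genes have their means within or above the band, and the 25 others, including most numbered Fbxw genes above Fbxw9, lie below or at its lower edge.

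The first comparison asked how fast each mRNA disappeared once transcription was blocked. All 48 expressed genes fell over the time course in limma at an adjusted p of 0.05, against 96.4% of all expressed probe sets, so the count does not set the F-box genes apart. Every 230 min array lay below every 0 min array for 48 of 48 genes (84.3% of all expressed probe sets). Their slopes ran from -0.59 log2 per hour for Fbxo42 to -0.14 for Fbxw8, with a median of -0.314 against -0.249 over all expressed probe sets. At 230 min a median of 44.4% of the 0 min level was left, compared with 54.0% over all expressed probe sets. Ranked among the slopes of all expressed probe sets, 38 of 48 were steeper than the median, 21 were in the steepest 25% and 4 in the shallowest 25%.

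The fall depends on the scaling of the arrays. Dividing each array by its median moved the median slope of all expressed probe sets to -0.067, and then 30 of the 48 genes fell and 0 rose, beside 37.8% and 1.96% of all expressed probe sets. Dividing by the 75th percentile moved it to 0.069, and then 13 fell and 12 rose, beside 15.7% and 50.0%.

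Slopes were also set beside those of genes of like signal, since no ratio falls far below 1.00. When expressed probe sets were split by 0 min level into 4 bins of equal size, the median slope in the lowest bin was -0.213. That of the 14 F-box genes there was -0.302, and 12 of 14 were steeper than the median of the bin. In the middle bins (9 of 15 and 10 of 17 steeper) the medians were -0.335 and -0.323 for the F-box genes, beside -0.286 and -0.287 for all probe sets. Cul1 and Fbxw8 were in the top bin, 1 on each side of its median. In all, 32 of 48 genes were steeper than the median of their own bin.

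To set genes against each other on the same arrays, the median log2 value of all expressed probe sets was subtracted from each array before the fit. On this relative scale 13 genes were steeper than the array median (27.1%, against 15.6% of all expressed probe sets), 13 were shallower (27.1%, against 50.2%) and 22 did not pass in either direction. The zero of the scale is the array's median level. It is not the slope of a typical transcript, whose median here was 0.069. When arrays were centred on the median of all probe sets instead, 30 genes were steeper and 0 shallower, beside 37.8% and 1.96% of all expressed probe sets. When the 5th percentile was subtracted as background, 22 were steeper and 12 shallower, beside 22.3% and 43.8%. Without time course 1 or without time course 3, 8 genes were shallower, beside 38.3% and 38.1%.

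**Figure D2:**
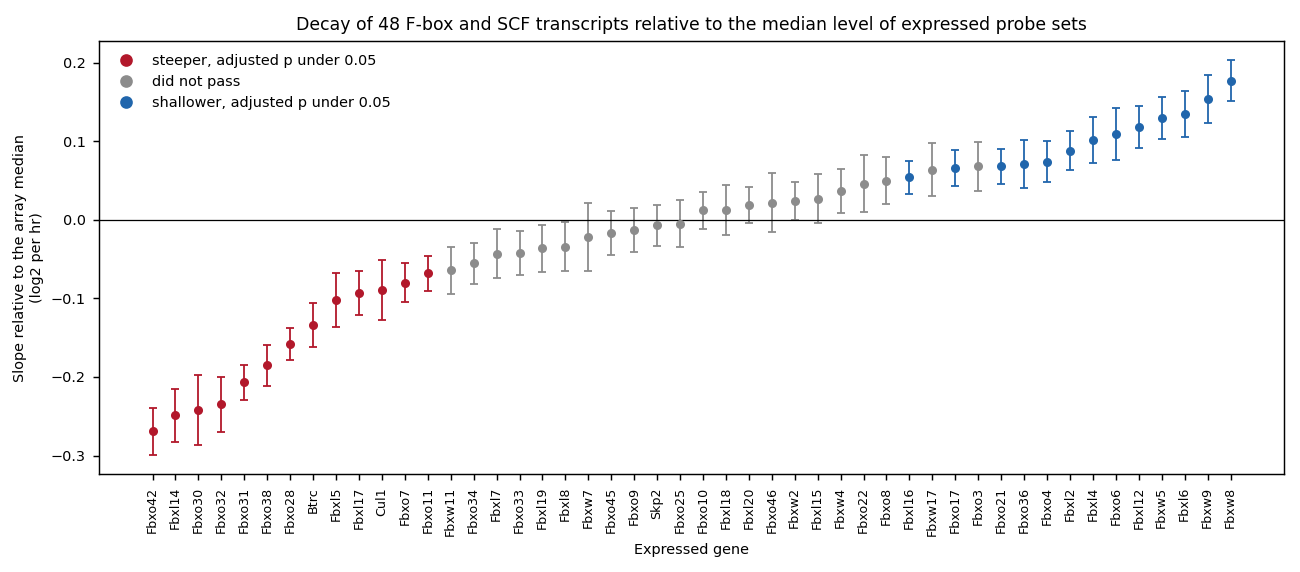
Points are the slopes of the 48 expressed genes relative to the array median (log2 per hour) and bars are 1 standard error from limma; red genes were steeper and blue genes shallower at an adjusted p of 0.05. The 13 steeper genes run from Fbxo42 (-0.27) to Fbxo11 (-0.07), and the 13 shallower genes reach 0.18 in Fbxw8.

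The counts by family were small, and families were not tested against each other. Of the 23 Fbxo genes, 8 were steeper and 5 shallower, and their median slope on the unshifted scale was -0.33 log2 per hour. Of the 14 Fbxl genes, 3 were steeper and 5 shallower (median -0.302). Of the 8 Fbxw genes, 0 were steeper and 3 shallower (median -0.268), and Btrc, a WD40 receptor under another symbol, was steeper.

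Among the steepest genes were 2 known from muscle. Fbxo32 encodes atrogin-1, the receptor induced in atrophying muscle. Its ratio was 7.16, 5.87 and 7.21 at 0 min, 4.51, 4.0 and 4.72 at 50 min, and 1.77, 1.34 and 1.83 at 230 min. The 3 groups did not overlap, and the relative slope was -0.24 ± 0.035 (SE, limma adjusted p = 2.1e-05).

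Fbxo30 encodes another atrophy-related receptor, MUSA1. It gave 15.78, 14.24 and 14.59 at 0 min, 7.15, 8.89 and 9.16 at 50 min, and 3.97, 2.95 and 3.66 at 230 min. Again no group overlapped another, and the relative slope was -0.24 ± 0.045 (SE, limma adjusted p = 1.9e-04). For Fbxo30 minus Fbxo32 on the same array, the slopes were -0.002, 0.001 and -0.021 log2 per hour in the 3 time courses, and the pair was not separated (mean -0.007, exact permutation, adjusted p = 0.87). With the 5th percentile subtracted the difference turned to 0.208 (exact permutation, adjusted p = 0.015). All 3 ratios of Fbxo32 at 230 min lay under 2, those of Fbxo30 between 2.95 and 3.97.

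Fbxo21, another receptor of the atrophy programme, behaved otherwise. Its ratio was 10.95, 9.76 and 7.88 at 0 min and 5.64, 4.39 and 5.17 at 230 min, with 8.68, 9.71 and 9.30 at 50 min inside the 0 min range. It was shallower than the array median (0.07 ± 0.022, SE, limma adjusted p = 0.012), but not than a typical transcript. Its unshifted slope of -0.249 log2 per hour equalled the median of all expressed probe sets, 49.7% of which were steeper.

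Fbxo42 had the steepest slope of the 48 genes in this fit. Fbxo32 was steeper than it with the 5th percentile subtracted, Fbxo30 and Fbxl14 without the 230 min arrays, and Fbxl14 without time course 1. Fbxo42 acts on p53 in human cells. Its ratio went from 12.03, 8.07 and 10.06 at 0 min to 2.58, 1.95 and 2.27 at 230 min, and every 50 min array (7.78, 6.97 and 7.43) was already below the 0 min range. The relative slope was -0.27 ± 0.030 (SE, limma adjusted p = 1.0e-06), and 2.32% of expressed probe sets had a slope as steep or steeper.

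Fbxl14, a receptor of the transcription factor Snail, fell from 12.70, 10.83 and 10.91 at 0 min to 3.05, 1.80 and 2.74 at 230 min. Its 10 min arrays (9.41, 7.5 and 8.68) were already below all 0 min arrays. This is not particular to steep genes. Fbxo6 of the shallower group did the same, with 6.09, 6.28 and 6.89 at 10 min after 8.16, 7.16 and 7.83 at 0 min. The share over all expressed probe sets was not taken at 10 min. The relative slope of Fbxl14 was -0.25 ± 0.034 (SE, limma adjusted p = 8.0e-06). Fbxo38, Fbxo28 and Btrc followed Fbxo31 in the order, with relative slopes of -0.19, -0.16 and -0.13. Btrc did not pass without the 230 min arrays (limma adjusted p = 0.075). Fbxl5, the receptor of an iron regulatory protein, Fbxl17, Fbxo7 and Fbxo11 made up the rest of the steeper group with Cul1, at -0.10 to -0.07.

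**Figure D3:**
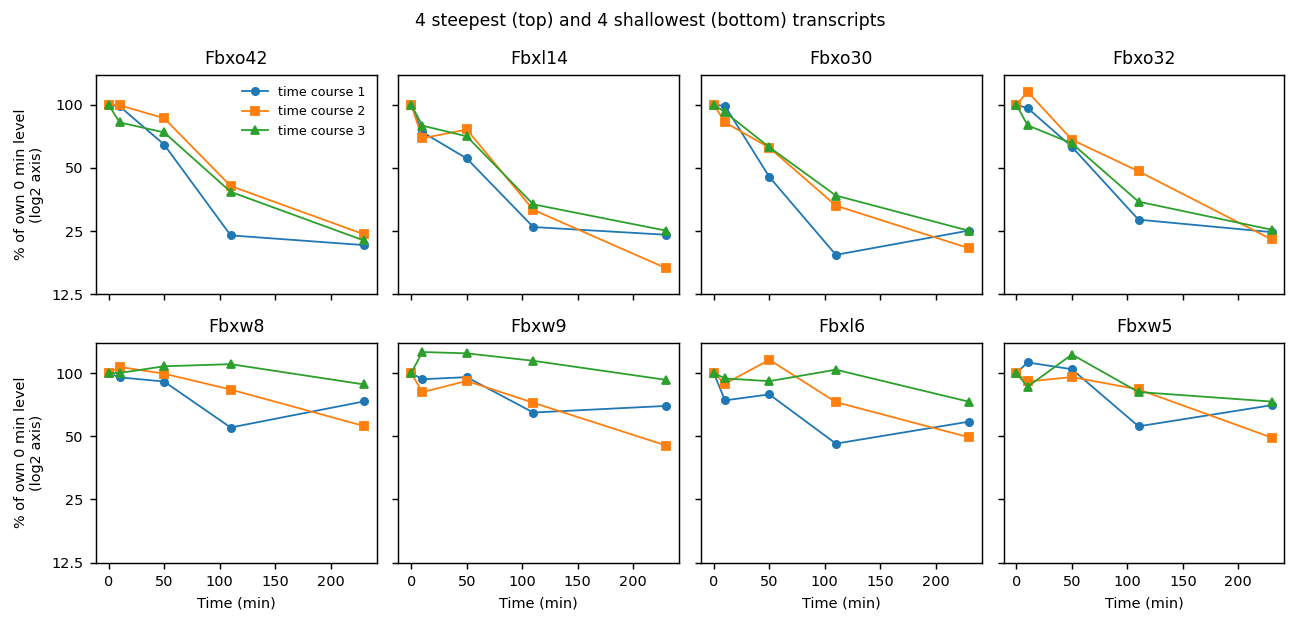
Ratios of the 4 steepest (top row) and 4 shallowest genes (bottom row) as a percent of their own 0 min value (log2 axis) against time in min, with 1 line per replicate time course. The top genes end near or below the 25% line in all time courses, while the bottom genes mostly stay above the 50% line and are lower at 110 min than at 230 min in time course 1.

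The shallowest member was Fbxw8, the WD40 receptor that works with Cul7. Its ratio was 24.08, 18.65 and 19.25 at 0 min, 21.94, 18.53 and 20.74 at 50 min, and 17.64, 10.44 and 17.00 at 230 min. The 50 min arrays overlapped those at 0 min, and all 230 min arrays lay below them. The relative slope was 0.18 ± 0.026 (SE, limma adjusted p = 1.9e-05), and 91.2% of expressed probe sets were as steep or steeper.

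Fbxw9 (0.15), Fbxl6 (0.13), Fbxw5 (0.13) and Fbxl12 (0.12) came next, followed by Fbxo6 (0.11), Fbxl4 (0.10) and Fbxl2 (0.09). The rest of the shallower group were Fbxo4, Fbxo36, Fbxo21, Fbxo17 and Fbxl16, at 0.05 to 0.07. These slopes were close to that of a typical transcript, with 44.1% to 51.7% of expressed probe sets steeper. Both expressed glycoprotein receptors, Fbxo6 and Fbxo17, were in the shallower group. Centred on the median of all probe sets, Fbxl6, Fbxw5, Fbxl12, Fbxo6, Fbxl4 and Fbxl2 had slopes just below 0, and Fbxw8 and Fbxw9 no longer passed. Fbxl4 also turned with the 5th percentile subtracted, and there it passed as steeper (-0.107, limma adjusted p = 0.045). In the same setting Fbxl12 no longer passed (0.03, limma adjusted p = 0.54). Fbxl12 and Fbxl4 did not pass without the 230 min arrays, Fbxl2 and Fbxl4 without time course 1, Fbxl2 without the replicate block (limma adjusted p = 0.11) and Fbxo6 without time course 3.

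Core subunits and cell cycle receptors were then compared directly as pairs on the same array, where the scaling of the array cancels. In all, 9 pairs of partners or paralogs were tested by an exact two-sided permutation of the times within each time course, adjusted over the 9, and 4 passed.

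Cul1 and Skp1 differed. Cul1 was 30.70, 20.30 and 22.54 at 0 min, 12.09, 14.17 and 22.96 at 110 min, and 10.67, 5.36 and 9.50 at 230 min. Skp1 was 22.21, 17.98 and 20.44 at 0 min, 29.04, 20.71 and 29.95 at 50 min, and 19.77, 10.31 and 15.04 at 230 min, so that its 230 min range overlapped its 0 min range. The slope of Cul1 minus that of Skp1 was -0.249, -0.286 and -0.206 log2 per hour in the 3 time courses (mean -0.247, exact permutation, adjusted p = 0.0064). Relative to the array median Cul1 was steeper (-0.09, limma adjusted p = 0.045) and Skp1 shallower (0.16, limma adjusted p = 7.9e-04).

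Skp2, the receptor of the CDK inhibitor p27, was also steeper than Skp1. It measured 17.45, 10.07 and 12.63 at 0 min and 7.68, 3.36 and 5.94 at 230 min, without overlap. The difference was -0.159, -0.180 and -0.156 by time course (mean -0.165, exact permutation, adjusted p = 0.016). Without time course 2 neither pair with Skp1 passed, at exact permutation adjusted p-values of 0.074 for Cul1 and 0.15 for Skp2, and without time course 3 the pair Skp2 and Skp1 gave 0.080. Skp2 itself did not pass against the array median (-0.01, limma adjusted p = 0.83).

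Of the 9 pairs, the 2 receptors of cyclin D1 had the largest difference. Fbxo31 was 8.91, 6.89 and 8.44 at 0 min and 2.69, 1.61 and 2.34 at 230 min. Fbxo4 was 5.97, 6.91 and 5.85 at 0 min and 4.14, 2.80 and 3.26 at 230 min. Both fell without overlap, and the slope of Fbxo31 minus that of Fbxo4 was -0.303, -0.271 and -0.268 log2 per hour (mean -0.281, exact permutation, adjusted p = 6.8e-05). It also passed under each alternative run for the pairs, and it was the only 1 of the 9 to pass without the 230 min arrays (exact permutation, adjusted p = 0.0085). Fbxo31 had a second probe set, with means of 2.47 at 0 min and 1.47 at 230 min, which was not used.

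The paralogs Fbxo11 and Fbxo10 differed by less. Fbxo11, a receptor of Bcl6, went from 19.09, 14.79 and 17.31 to 8.08, 4.52 and 7.14 between 0 and 230 min. Fbxo10 went from 4.53, 4.02 and 4.42 to 2.31, 1.57 and 2.03. The difference was -0.054, -0.146 and -0.039 by time course (mean -0.080, exact permutation, adjusted p = 0.044). With the 5th percentile subtracted it turned to 0.061 and passed in that opposite direction (exact permutation, adjusted p = 0.05 after rounding). The direction of this pair therefore rests on how background is handled. It did not pass without time course 2 or 3 (exact permutation, adjusted p = 0.35 and 0.085) or without the 230 min arrays (exact permutation, adjusted p = 0.22).

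The β-TrCP paralogs Btrc and Fbxw11, receptors of β-catenin and IκBα, were not separated. Btrc was 9.03, 8.33 and 7.68 at 0 min and 3.62, 1.90 and 3.21 at 230 min. Fbxw11 was 10.26, 8.84 and 10.48 at 0 min and 4.78, 2.93 and 3.89 at 230 min. Their slopes differed by -0.044, -0.162 and -0.005 (exact permutation, adjusted p = 0.15), so the size rested mostly on time course 2. The pair passed with the 5th percentile subtracted (-0.129, exact permutation, adjusted p = 0.040).

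Fbxw7, the receptor of cyclin E and Myc, was 3.26, 2.46 and 3.36 at 0 min and 2.33, 2.14 and 2.15 at 50 min. At 230 min it was 1.33, 1.26 and 1.29, near the floor of the scale. It did not pass against Btrc (0.021, 0.317 and -0.001 by time course, exact permutation, adjusted p = 0.15) or against Skp2 (Skp2 minus Fbxw7 0.077, -0.114 and 0.083, exact permutation, adjusted p = 0.87). Subtracting the 5th percentile gave 0.390 for Skp2 minus Fbxw7 (exact permutation, adjusted p = 0.0015) and turned Fbxw7 minus Btrc to -0.176. The paralogs Fbxl20 and Fbxl2 did not pass either (-0.068, exact permutation, adjusted p = 0.072), although Fbxl20 was steeper in 3 of 3 time courses. With the 5th percentile subtracted they passed (-0.181, exact permutation, adjusted p = 0.011).

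**Figure D4:**
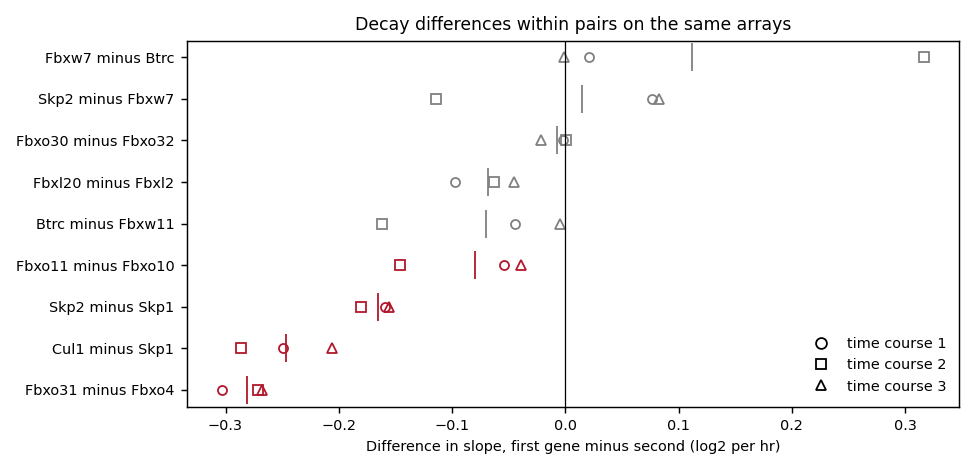
Differences in slope between the genes of each pair (log2 per hour, first minus second), with open symbols for the 3 time courses and a bar for their mean; red pairs passed the exact permutation test after adjustment over 9 pairs. Fbxo31 minus Fbxo4 and both pairs with Skp1 lie below -0.15 in every time course, and time course 2 stands apart in the pairs with Btrc.

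Half-lives were fitted to the linear ratios of each time course as a first-order decay. A fit was reliable when the p of the decay constant was under 0.05 and the 95% confidence interval was narrower than 2 times the half-life, and a gene needed this in at least 2 of 3 time courses. The half-life given for a gene is the mean over all time courses with a decay, including any whose own fit was not reliable. Of the 48 genes, 11 had reliable half-lives (22.9%, against 11.2% of all expressed probe sets), 17 were reliable in 1 time course and 20 in 0. The median over the 11 was 2.00 hr, compared with 2.20 hr over all 1400 reliable probe sets. By time course their medians were 1.62, 2.20 and 2.48 hr.

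Fbxo30 had the shortest, 74.0 ± 20.2 min (SD, n = 3), followed by Fbxo32 at 87.8 ± 10.5 min and Fbxo42 at 90.5 ± 19.2 min. These differences lie within the spread between time courses. The values rest on the scaling, and became 117, 137 and 135 min with arrays divided by their median and 187, 222 and 211 min with the 75th percentile. They rest on the curve too. A constant floor in it gave 62.0, 61.2 and 72.9 min, with Fbxo32 the shortest of the 3. A straight line through log2 values gave 107, 109 and 103 min, with Fbxo42 the shortest. Only Fbxo32 and Fbxo42 were reliable in 3 of 3, and each other reliable mean includes an unreliable fit. That fit was in time course 2 for Fbxo31 and in time course 1 for the rest. For Fbxo30 it gave 51.0 min, beside 82.2 and 88.9 min in the others. The time courses gave 75.7, 94.0 and 93.7 min for Fbxo32, with confidence intervals of 39.5 to 158, 48.4 to 209 and 49.6 to 198 min. For Fbxo42 they gave 68.5, 104 and 99.4 min.

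Fbxo38 (104 ± 21.6 min), Fbxo31 (114 ± 15 min) and Fbxl5 (120 ± 38.6 min) came next. The mean of Fbxl5 includes an unreliable 76.4 min in time course 1, beside 132 and 150 min in the others. Fbxo33, a receptor of YB-1, was at 152 ± 34.9 min and Fbxo45, which works with the ligase Mycbp2 in neurons, at 171 ± 58.3 min. The longest reliable values belonged to Fbxo9 (171 ± 51.4 min), Fbxo25 (183 ± 65.9 min) and Fbxo17 (234 ± 68.4 min, and 1200 min with arrays divided by their median). All 3 means include an unreliable fit in time course 1, with no upper bound for Fbxo9 and Fbxo25. Of the 11, 10 were Fbxo genes, 1 was an Fbxl gene and 0 were Fbxw genes. Fbxl14 averaged 86.5 ± 11.3 min but was reliable in only 1 time course, as was Btrc at 135 ± 30.9 min.

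The slowest gene had no reliable half-life. Fbxw8 gave 361, 273 and 1530 min in the 3 time courses, with no upper bound in time courses 1 and 3. Reliable fits were fewer in time course 1 (4.37% of expressed probe sets) than in the others (24.3% and 22.3%). Without the 230 min array of time course 2 there were 6 reliable genes (4.66% of expressed probe sets). Without time course 1, 2 or 3, when both of the others had to pass, there were 10, 3 and 2, beside 9.35%, 2.87% and 2.26% of expressed probe sets.

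The early and late intervals were tested separately in limma with time as a factor. Between 0 and 50 min only Fbxo30 fell at an adjusted p of 0.05 (-0.83 log2, adjusted p = 0.014), 1 of 48 against 1.99% of all expressed probe sets. It did not pass without the replicate block or without any 1 time course. Without the 110 min array of time course 1, 4 genes passed, beside 4.58% of all expressed probe sets. By counts, 15 of 48 genes had every 50 min array below every 0 min array (31.2%, against 16.5%). They were Fbxo30, Fbxo32, Fbxo38, Fbxo42, Fbxl5 and Fbxl14 of the steeper group, Fbxo6, Fbxl12 and Fbxl16 of the shallower group, and Fbxo45, Fbxo46, Fbxl7, Fbxl8, Fbxl18 and Fbxw7. In 6 of 48 genes the 50 min mean was at or above the 0 min mean. The same count was not made over all expressed probe sets, so it does not set the F-box genes apart. Fbxo36 was 8.06, 10.27 and 5.88 at 0 min and 7.41, 13.46 and 7.83 at 50 min, with overlap.

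Between 110 and 230 min Fbxo31 (-0.74 log2, limma adjusted p = 0.039) and Cul1 (-0.95 log2, limma adjusted p = 0.0047) fell, 2 of 48 against 2.12% of all expressed probe sets. Fbxo31 was 3.00, 3.75 and 4.20 at 110 min, above all 3 of its 230 min arrays, whereas Cul1 at 110 min in time course 1 (12.09) was close to its 230 min value there (10.67). Single arrays decided this count. Leaving out the 110 min array of time course 1 gave 29, where 40.5% of all expressed probe sets fell, and it was 0 without the 230 min array of time course 2, and 0 without the replicate block. Without time course 1 it was 32, where 48.1% fell, and without time course 2 or 3 it was 0.

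The other parts of the ligase were measured beside the F-box genes, from lists of known components, and values for single genes are slopes relative to the array median. The counts of each list are to be read beside the 15.6% steeper and 50.2% shallower among all expressed probe sets, whose median slope was -0.249. All 12 SCF partners fell, with 1 steeper than the array median (the ubiquitin-conjugating enzyme Ube2d2a, -0.12) and 3 shallower, among them the RING subunit Rbx1 (0.10). Their median slope was -0.318. Of 19 expressed genes of neddylation and its reversal, which switch cullins on and off, 0 were steeper and 8 shallower (median -0.263). These included Ube2f (0.13), Dcun1d1 (0.12) and Dcun1d2 (0.12). Of 6 other expressed cullins, 0 were steeper and 3 shallower (Cul5 0.10, Cul4a 0.09, Cul4b 0.08).

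Of 8 F-box genes that the rule did not take, 3 were steeper and 2 (Lrrc29 and Lmo7) shallower, with a median slope of -0.344. The steeper ones were Fbxo5 (-0.68), the inhibitor of the anaphase-promoting complex, the cyclin F gene Ccnf (-0.44) and the histone demethylase gene Kdm2a (-0.18). Fbxo5 and Ccnf had slopes below those of all 48 genes described above. Among 20 expressed SCF substrates, 12 were steeper and 2 shallower, with a median slope of -0.462. Myc (-0.55), Wee1 (-0.52) and Cdt1 (-0.48) were the steepest of these, and the shallower ones were Ccnd1 (0.16), which encodes cyclin D1, and Ctnnb1. Of the 12 expressed cell cycle and growth receptors within the F-box genes, 5 were steeper and 4 shallower (median -0.361).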

How the data were processed

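The deposited values are linear ratios made by the authors, who scaled every array to its own 5th percentile. How probe sets were summarised, how background was corrected and with which software is not given in the sources used here. The values hold no detection p-values, so the level filter took their place. Gene symbols came from the platform annotation (21044 probe sets with 1 symbol, 1492 with several and 2639 with none) and were matched to the RefSeq table of GRCm38.p6 for names only.

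Slopes were fitted on log2 ratios against time in hours with limma 3.58.1 in R 4.3.3, with a block for the replicate time course. Variances were moderated with eBayes and p-values adjusted by Benjamini-Hochberg over 12544 probe sets. The block follows the study, which fits each time course alone. Deviations from the time point means correlated over 0.1 in 29 of 30 same-numbered pairs (median 0.362) and in 14 of the 60 others. Half-lives were fitted by least squares with scipy 1.17.1 and numpy 2.4.6 in Python 3.11.15 (pandas 2.3.3, matplotlib 3.10.9), with profile intervals. The pair test enumerated all 1728000 orders of the times. The relative trend was also run on 12544 simulated probe sets with independent noise of equal spread, no floor and few added slopes. It recovered 100% of slopes of 0.25 and of 0.5 log2 per hour, with 10 false calls among the unchanged probe sets. Most slopes called among the F-box genes were smaller than 0.25, and in the real data most probe sets passed. The simulation therefore does not give the error rates of the real calls.

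Genes named with values were the core subunits, Skp2, the β-TrCP genes, Fbxw7, the muscle genes, the members of pairs, the 8 steepest and 8 shallowest genes that passed, the 8 shortest and longest reliable half-lives and the 3 genes with the highest 0 min means, with up to 3 genes from each other list. Fbxo36, Ctnnb1, Lrrc29, Lmo7 and the remaining steeper and shallower genes were named after their values were seen. The genes, lists and pairs were chosen with earlier results of these data known. Alternatives changed the scaling, the centring, the background, the filter, the block, the curve and the arrays used. Of 10 pairs listed, 1 is not reported here. Precision is limited by how many arrays there are. Ube2m and Cdkn1a had no probe set with a single symbol and were not used.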

Additional observations from a re-analysis of the deposited data

How the results depend on the processing

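The slopes rest on the scaling. Of the 48 genes 30 fell when arrays were divided by their median, and 13 fell and 12 rose with the 75th percentile. With a filter at the 75th percentile, which tests fewer genes, 19 of 19 fell, beside 93.3% of probe sets. Percentages in brackets below are likewise the shares of all probe sets tested in that setting. Steeper genes on the relative scale numbered 30 (median of all probe sets, 37.8%) and 22 (5th percentile subtracted, 22.3%). They numbered 8 of 19 tested with the filter at the 75th percentile (24.2%) and 8 without the 230 min arrays (11.5%). Without 1 time course 10 to 11 were steeper (12.2% to 14.5%). Shallower genes numbered 0 (median of all probe sets, 1.96%), 36 of 73 tested (no filter, 74.2%) and 3 of 19 tested (filter at the 75th percentile, 36.5%). Without 1 time course 8 to 11 were shallower (38.1% to 47.2%). Relative slopes that turned with the median of all probe sets were Fbxl6 -0.002, Fbxw5 -0.007, Fbxl12 -0.019, Fbxo6 -0.027, Fbxl4 -0.035 and Fbxl2 -0.049, and with the 5th percentile subtracted Fbxl4 -0.107. The early count of 1 became 0 with division by the median (0.981%), with no filter (1.03%) and with no replicate block (1.04%). It was 3 with an intensity trend in eBayes (3.66%) and 4 without the 110 min array of time course 1 (4.58%). Without any 1 time course it was 0 (0.51% to 1.08%). The late count of 2 became 0 with division by the median (0.167%), with no filter (0.0119%) and with no replicate block (0.00797%). It was 1 of 19 tested with the filter at the 75th percentile (3.01%). Without the 110 min array of time course 1 it was 29 (40.5%), and without the 230 min array of time course 2 it was 0 (0.383%). Without 1 time course it was 0 to 32 (0.00797% to 48.1%). Without the replicate block, 48 genes fell (95.5%), 12 were steeper (13.9%) and 10 shallower (44.0%), and 4 pairs passed. Reliable half-lives numbered 2 (division by the median, 2.5%), 3 (75th percentile, 2.08%) and 21 (straight line through log2 values, 22.3%). Without the 230 min arrays there were 3 (4.38%). Without the 230 min array of time course 2, an alternative chosen after seeing the data, there were 6 (4.66%). Without 1 time course reliable half-lives numbered 2 to 10 (2.26% to 9.35%). Their median was 2.62 hr (division by the median), 4.98 hr (75th percentile), 1.39 hr (constant floor in the curve), 2.60 hr (straight line), 2.50 hr (without the 110 min array of time course 1) and 1.41 to 2.58 hr without 1 time course. Pairs that passed numbered 8 with the 5th percentile subtracted, 1 without the 230 min arrays and 1 to 4 without 1 time course. Slope differences that turned were Fbxw7 minus Btrc -0.176, Fbxo30 minus Fbxo32 0.208 and Fbxo11 minus Fbxo10 0.061 with the 5th percentile subtracted, and Skp2 minus Fbxw7 -0.015 without time course 1 and -0.019 without time course 3 (up to 0.080 without time course 2). The cause of these moves was not tested beyond the smaller tests named.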
